A study of Zea mays with 24 samples.

Results

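Pre-blade and pre-sheath tissue of maize leaf primordia (Zea mays, inbred B73, wild type) at P7, the seventh primordium counted from the shoot tip, were compared through all cell layers, with 3 libraries on each side, which are 6 of the 24 libraries of the study. The study asked which genes differ along the proximal-distal axis of the young leaf around the preligule band, the strip of cells from which the ligule grows. The 3 ligule libraries of the same stage and cell layers were placed relative to the other regions for each gene, and the 6 blade and sheath libraries of the adaxial L1 are set beside them, that layer being the outer cell sheet on the leaf's upper face. Groups are called blade, ligule and sheath here. Per the labels' protocols, chamber-grown plants had days of 15 h at 25 °C and nights of 9 h at 20 °C, and each library pooled 5 to 6 plants. The ligule piece was a laser-cut rectangle 100 µm high centred on the preligule band, and the blade and sheath pieces were rectangles of like size 50 µm above it and below it, so blade and sheath here are tissue close to the boundary and not mature organs. RNA was amplified linearly in 2 rounds before libraries were made. What libraries of equal number share is not stated in the labels.

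The grass leaf has a distal blade, which captures light, and a proximal sheath, which wraps the stem, with the ligule and auricles at the border. Both grow from one primordium, and the border is set up while the cells of either side still look much alike. Genes known from maize mutants to act there include the liguleless genes and the KNOX homeobox genes, which are expressed in meristems and are kept off in most of the leaf.

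The dissection was checked with genes of the ligule band. The SBP-box regulator gene lg1 (GRMZM2G036297), without which no normal ligule forms, had 7 counts over the 3 blade libraries, 785 over the ligule libraries and 6 over the sheath libraries. The WOX gene ns1 and the NAC gene CUC2 had no count in any blade or sheath library. Summed over these 3 markers, blade libraries held 0.0394 to 0.185 CPM (counts per 1e6), ligule libraries 6.97 to 22.8 CPM and sheath libraries 0 to 0.327 CPM. The epidermal HD-ZIP IV list, 7 genes, summed to 689 to 895 CPM in blade and 720 to 851 CPM in sheath. The vascular list summed to 29.8 to 35 CPM in blade and 31.9 to 36.7 CPM in sheath. Only 1 of its 7 genes had enough counts to be tested, so its sum is a weak check of vascular content. In such tissue pieces, fewer cells of a type and less RNA per cell cannot be told apart.

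Total estimated counts, in units of 1e6, were 52.7, 23.3 and 21.7 in blade replicates 3, 4 and 5, 37.9, 19.3 and 51.3 in the ligule replicates and 16.3, 17.3 and 10 in the sheath replicates. Sheath libraries were thus shallower than every blade library. A floor of 3 counts equals 0.0569 to 0.301 CPM in these libraries. The mean correlation of a library with its own group (Pearson's r over genes, log2(CPM + 1)) was 0.975 to 0.979 in blade and 0.946 to 0.964 in sheath. Sheath replicate 4 was lowest, at 0.946 with its own group and 0.941 with the other regions, and sheath replicates 3 and 5 stood at 0.962 and 0.961 with the other regions. Where 3 values of a region follow each other below, they are those of replicates 3, 4 and 5. Levels are FPKM as deposited, that is, fragments scaled by transcript length and library size, and differences are log2 of blade over sheath from edgeR's quasi-likelihood test on counts, with Benjamini-Hochberg adjustment over all genes tested and a threshold of 0.05. Genes past it are called.

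A small share of genes was called between blade and sheath tissue, and more of the called genes were lower in blade than higher. Genes that were not called were not shown to have equal levels. Of 22205 genes tested, 350 were called (1.58%), 112 higher in blade (0.504%) and 238 lower in blade (1.07%), so 68.0% of the called genes were lower in blade. Without adjustment, 1997 genes (8.99%) had a p under 0.05. The size of the called differences had a median of 2.39 on the log2 scale and ran from 0.9 to 10.15, and 138 exceeded 8-fold. The median over all tested genes was -0.01, and 50.8% of them had a difference below 0. All 350 called genes had blade and sheath libraries that did not overlap, as had 3235 of the genes tested (14.6%). In 14 called genes one side had no count at all, 7 on each side. With every library thinned to the total of the shallowest, an alternative chosen after seeing the data, 279 genes were called, 91 higher and 188 lower in blade, and 262 of them were among the 350. Without sheath replicate 4, 355 genes were called, of which 270 were among the 350. Without blade replicate 3, 4 or 5 the count was 168, 151 or 113, and without sheath replicate 5 it was 163. In all, 95 genes, 30 higher and 65 lower in blade, were called whichever of the 9 libraries was left out.

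**Figure D1:**
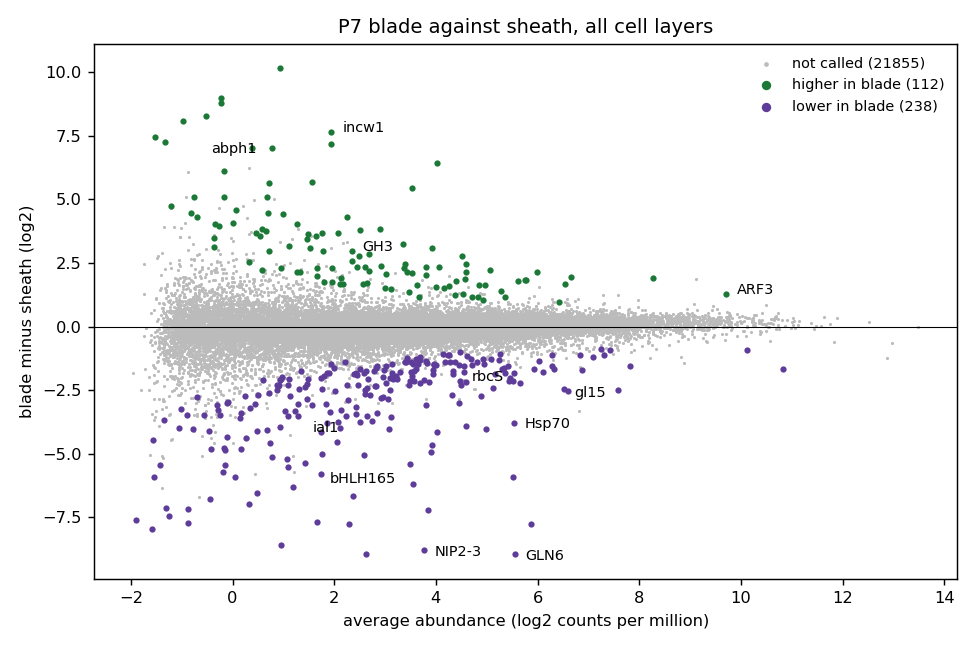
Difference between blade and sheath (log2, blade minus sheath) against average abundance (log2 CPM) for the 22205 genes tested. Green points are the 112 genes called higher in blade and purple points the 238 called lower in blade; grey points are not called. Purple points outnumber green ones, and among the labelled genes GLN6 and NIP2-3 lie lowest.

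A table of RefSeq names gave a name other than a locus code to 62 of the 350 called genes. A fixed rule picked 46 called genes from these. The calls of 19 of the 46 were kept whichever library was left out, and those genes are described in most detail. For the other 27, the libraries without which the call was lost are named for each gene described by itself. A leave-one-out range is the lowest to highest log2 difference over the 9 fits that each lack 1 library. Sequences are not printed, since sequence tables were not used here.

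Nitrogen assimilation and membrane transport gave the 2 largest differences among the named genes, both lower in blade. GLN6 (GRMZM2G050514), a glutamine synthetase gene, stood at 0.21, 0.159 and 0.0733 FPKM in blade, 21, 23.1 and 16.8 FPKM in ligule and 74.6, 88.5 and 92.7 FPKM in sheath. The 3 regions formed 3 separate levels with no overlap. The blade mean was 498-fold below the sheath mean in the fit (-8.96, SE 0.37, edgeR adjusted p = 6e-08). NIP2-3 (GRMZM2G081239), a membrane channel gene of the aquaporin family whose RefSeq synonym Lsi6 is the name of a silicon channel in rice, stood at 0.0282, 0.0959 and 0.0677 FPKM in blade, 0.955, 5.93 and 2.65 FPKM in ligule and 36.1, 16.7 and 27.5 FPKM in sheath. Here too no library of one region reached the range of another (-8.79, SE 0.85, edgeR adjusted p = 0.00032). Both genes were also lower in blade in the adaxial L1, by -9.12 (SE 0.38, edgeR adjusted p = 3.8e-08) for GLN6 and by -7.48 (SE 0.51, edgeR adjusted p = 3.9e-06) for NIP2-3.

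Of 12 aquaporin genes tested, 2 were called, both lower in blade, against 1.58% of all genes; 11 of the 12 had a difference below 0 and the median was -0.69. The second was TIP4-1 (GRMZM2G103945), a tonoplast intrinsic protein gene, at 0.0281, 0.128 and 0.468 FPKM in blade, 4.88, 4.87 and 5.71 FPKM in ligule and 1.7, 2.34 and 5.05 FPKM in sheath (-3.95, SE 0.74, edgeR adjusted p = 0.018). That call was lost without blade replicate 3, blade replicate 4 or sheath replicate 5 (leave-one-out range -5.37 to -3.23). The most abundant aquaporins of the list were not called: PIP2-1 averaged 217 ± 43.5 FPKM in blade and 262 ± 110 in sheath, and PIP1-3 averaged 95.2 ± 20.2 FPKM in blade and 133 ± 43.2 in sheath (SD, n = 3 each). Of 14 nitrogen genes tested, GLN6 alone was called, and the median was -0.25.

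The called genes of the light reactions and carbon fixation lists were all lower in blade than in sheath. In the light reactions list, 4 of 22 tested genes were called, all lower in blade (background 1.07% in that direction); 18 of the 22 had a difference below 0, against 50.8% of all tested genes, and the median was -0.97. Over the settings that rescale or refit the data the median lay between -0.97 and -0.82, and with single libraries left out between -1.15 and -0.87. Summed over the list, blade libraries held 731 to 779 CPM, ligule libraries 755 to 963 CPM and sheath libraries 1020 to 1150 CPM, with no overlap of blade and sheath. CP24 (GRMZM2G092427), a minor antenna protein of photosystem II, stood at 1.07, 0.508 and 0.907 FPKM in blade, 7.08, 3.27 and 6.97 FPKM in ligule and 7.99, 13.0 and 9.11 FPKM in sheath (-3.51, SE 0.42, edgeR adjusted p = 0.00088). Each blade library lay below each ligule and sheath library, and ligule replicates 3 and 5 came close to the lowest sheath value. The photosystem I subunit gene psaN (GRMZM2G080107) stood at 9.58, 7.03 and 10.7 FPKM in blade, 55.8, 38.1 and 40.9 FPKM in ligule and 24.1, 38.9 and 40.6 FPKM in sheath (-1.86, SE 0.27, edgeR adjusted p = 0.0038), so that ligule and sheath overlapped and blade lay apart.

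The other called light reaction genes were cp29 (GRMZM2G033885), another photosystem II antenna gene, and cab-m9 (GRMZM2G155216), a chlorophyll a/b-binding protein gene named after its value was seen. The level of cp29 was 52.9, 62.2 and 78.4 FPKM in blade, 130, 105 and 112 FPKM in ligule and 108, 141 and 195 FPKM in sheath (-1.12, SE 0.23, edgeR adjusted p = 0.03), and the call was lost without any blade library, ligule replicate 4 or 5 or sheath replicate 5 (leave-one-out range -1.27 to -0.92). cab-m9 averaged 1.48 ± 0.366 FPKM in blade and 5.79 ± 2.63 in sheath (SD, n = 3 each; -1.89, edgeR adjusted p = 0.027), and its call was lost without any blade library or sheath replicate 5 (leave-one-out range -2.06 to -1.53). Members that were not called include psaH (4.54 ± 1.83 FPKM in blade and 12.7 ± 2.54 in sheath; -1.42, edgeR adjusted p = 0.053), cab-m1 (0.494 ± 0.12 FPKM in blade and 2.73 ± 0.549 in sheath; -2.43, edgeR adjusted p = 0.063) and Cab-m7 (4.67 ± 2.1 FPKM in blade and 12.9 ± 3.65 in sheath; -1.4, edgeR adjusted p = 0.095). The ferredoxin gene fdx3, at 170 ± 21.2 FPKM in blade and 160 ± 12.5 in sheath, and the ferredoxin reductase gene fnr1, at 72.0 ± 7.82 FPKM in blade and 71.2 ± 14.2 in sheath, differed by less than their spread.

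In carbon fixation, 3 of 11 tested genes were called, all lower in blade (1.07% of all genes), with a list median of -0.62 and 9 differences below 0. The summed level was 140 to 167 CPM in blade, 270 to 482 CPM in ligule and 318 to 554 CPM in sheath. PPDK2 alone, described below, averaged 46.1 CPM in blade, 271 CPM in ligule and 259 CPM in sheath. The sums thus largely followed that gene. The gene rbcS (GRMZM2G098520), for the small subunit of Rubisco, stood at 4.51, 3.25 and 3.76 FPKM in blade, 8.03, 7.53 and 10.3 FPKM in ligule and 19.8, 19.2 and 19.6 FPKM in sheath. The 3 regions did not overlap, and blade was 4.88-fold below sheath (-2.29, SE 0.23, edgeR adjusted p = 0.00023). PPDK2 (GRMZM2G097457), a pyruvate phosphate dikinase gene whose synonym CYPPDKZM2 names the cytosolic form, stood at 30.1, 21.8 and 36.7 FPKM in blade, 239, 93.8 and 251 FPKM in ligule and 83.9, 256 and 175 FPKM in sheath (-2.49, SE 0.43, edgeR adjusted p = 0.012). Ligule and sheath overlapped there, and the call was lost without any of the 3 blade libraries (leave-one-out range -2.8 to -2.03). GAPA (GRMZM2G337113), for a subunit of the chloroplast glyceraldehyde phosphate dehydrogenase and named after its value was seen, averaged 1.56 ± 0.0307 FPKM in blade and 5.81 ± 1.26 in sheath (SD, n = 3 each; -1.82, edgeR adjusted p = 0.027), and its call was lost without any blade library or sheath replicate 5 (leave-one-out range -1.96 to -1.73). The C4 carboxylase gene pep1 had no count in blade or sheath. The chloroplast biogenesis list gave no called gene among 26 tested and a median of -0.02.

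Transcription factor genes called lower in blade came from several families. The bHLH list had the most, with 5 called of 33 tested, all lower in blade (1.07% of all genes), and a median of -0.36. bHLH165 (GRMZM2G145579) stood at 0.0609, 0.099 and 0.0587 FPKM in blade, 14.5, 24.3 and 19 FPKM in ligule and 3.62, 3.36 and 2.55 FPKM in sheath (-5.42, SE 0.42, edgeR adjusted p = 2.6e-05). Its highest level was thus in the ligule, above sheath by 2.55 (edgeR adjusted p = 0.00057), and it was nearly off in blade. bHLH145 (GRMZM2G472671) was highest in sheath instead, with the ligule called against both regions and 0.725, 0.522 and 1.23 FPKM in blade, 3.69, 2.83 and 4.95 FPKM in ligule and 7.53, 10.8 and 16.4 FPKM in sheath (-3.74, SE 0.41, edgeR adjusted p = 0.00046). The remaining bHLH genes, named after their values were seen, were bHLH24 (GRMZM2G085751), which averaged 0.00921 FPKM in blade and 3.84 FPKM in sheath, bHLH27 (GRMZM2G092091), at 4.69 FPKM in blade and 13.3 FPKM in sheath, and bHLH53 (GRMZM2G111146), at 34.3 FPKM in blade and 78 FPKM in sheath. The 1 count of bHLH24 in blade and 248 in sheath gave a sheath-over-blade ratio of 540 after scaling by depth, with a 95% counting interval from 96 to 21400, and its call was kept in every leave-one-out fit. The call of bHLH27 was kept only without sheath replicate 3 (range -1.64 to -1.08), and that of bHLH53 was lost without any blade library, ligule replicate 4 or sheath replicate 4 or 5 (range -1.28 to -0.97).

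The LOB-domain gene ial1 (GRMZM2G133806), a relative of the leaf and gametophyte gene ig1, stood at 0.29, 0.363 and 0.791 FPKM in blade, 3.79, 7.81 and 7.28 FPKM in ligule and 5.06, 4.54 and 7.1 FPKM in sheath. Ligule and sheath overlapped, and each of their libraries was above each blade library (-3.43, SE 0.45, edgeR adjusted p = 0.0016). IG1 itself averaged 29.4 ± 16.1 FPKM in blade and 24.7 ± 4.28 in sheath (SD, n = 3 each; 0.31, edgeR adjusted p = 0.92). Glossy15, gl15 (GRMZM2G160730), an AP2-like gene that maintains juvenile epidermal traits of the maize leaf, stood at 9.72, 18.4 and 14.8 FPKM in blade, 29.9, 59.3 and 36.6 FPKM in ligule and 105, 42.9 and 99.9 FPKM in sheath. Its levels in ligule and sheath overlapped through sheath replicate 4, and blade lay below both (-2.47, SE 0.4, edgeR adjusted p = 0.0087; call lost without blade replicate 5, leave-one-out range -2.77 to -2.19). In the adaxial L1 gl15 reached 56.7, 26.9 and 82.4 FPKM in blade replicates 1, 2 and 3, against 240, 352 and 306 FPKM in sheath (-2.35, SE 0.33, edgeR adjusted p = 0.002). The MYB gene Myb23 (-3.67, SE 0.75, edgeR adjusted p = 0.028) was called on 6 counts in blade and 40 in sheath. That call was lost without any library except ligule replicate 3 (leave-one-out range -4.34 to -3.24). Each of these genes was the only called one of its list (1.07% of all genes). The lists held 6 tested LOB-domain genes (median -0.66), 24 EREB and AP2 genes (median -0.12) and 32 MYB genes (median 0.04).

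Several hormone and stress genes were lower in blade. In the jasmonate and lipoxygenase list, 2 of 31 tested genes were called, both lower in blade (1.07% of all genes). Both were listed by symbol alone, and their part in jasmonate synthesis was not tested. The list median was -0.19 and lay between -0.3 and 0.12 with single libraries left out. The oxophytodienoate reductase gene opr6 (GRMZM2G068947) stood at 0.776, 0.845 and 0.505 FPKM in blade, 1.65, 0.966 and 1.6 FPKM in ligule and 6.27, 8.39 and 8.58 FPKM in sheath (-3.37, SE 0.37, edgeR adjusted p = 0.00046). The allene oxide synthase gene aos1 (GRMZM2G067225) stood at 0.00854, 0.232 and 0.412 FPKM in blade, 0.533, 0.721 and 2.24 FPKM in ligule and 5.77, 5.94 and 8.96 FPKM in sheath (-5.05, SE 0.9, edgeR adjusted p = 0.019; call lost without blade replicate 4 or sheath replicate 5, leave-one-out range -6.02 to -4.33). In both genes each sheath library was above each ligule and blade library. The ligule was called below sheath for opr6 (edgeR adjusted p = 0.0014) but not for aos1 (edgeR adjusted p = 0.12). For aos1 the average was 0.218 FPKM in blade, 1.17 FPKM in ligule and 6.89 FPKM in sheath.

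Of 12 ethylene and abscisic acid genes tested, 2 were called, both lower in blade (1.07% of all genes), while the list median was 0.12. PYL7 (GRMZM2G144224), of the abscisic acid receptor family, stood at 2.26, 2.8 and 2.87 FPKM in blade, 18.1, 24.1 and 14 FPKM in ligule and 10.9, 8.69 and 12.5 FPKM in sheath (-1.96, SE 0.31, edgeR adjusted p = 0.0059). Ligule values were all above sheath values there, without a call between them (edgeR adjusted p = 0.29). The abscisic acid synthesis gene vp14 was low, at 0.126 ± 0.0671 FPKM in blade and 1.11 ± 0.623 in sheath (SD, n = 3 each; edgeR adjusted p = 0.035), and its call was lost without any blade library, ligule replicate 4 or 5 or sheath replicate 4 or 5 (leave-one-out range -3.39 to -2.49). The cuticular wax gene gl4a (GRMZM2G003501), an enzyme gene of very-long-chain fatty acid elongation, stood at 0.839, 0.561 and 0.726 FPKM in blade, 2.1, 1.52 and 2.38 FPKM in ligule and 4.22, 6.6 and 9.29 FPKM in sheath (-3.14, SE 0.36, edgeR adjusted p = 0.00053). The regions did not overlap, and gl4a was the only called member of 7 in the cuticle list.

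SMR4 (GRMZM2G019353), a member of a family that in Arabidopsis inhibits cyclin-dependent kinases, stood at 3.48, 4.6 and 8.06 FPKM in blade, 19.9, 18.2 and 26.7 FPKM in ligule and 23.8, 30.3 and 20.9 FPKM in sheath (-2.18, SE 0.33, edgeR adjusted p = 0.005). It was the only called gene of 36 in the cell cycle and replication list, whose median was 0.09. Of 24 heat shock genes tested, 2 chaperone genes were called, both lower in blade (1.07% of all genes). Hsp70 (GRMZM2G310431) stood at 3.65, 1.92 and 2.21 FPKM in blade, 25.3, 11.8 and 17.4 FPKM in ligule and 20.8, 60.6 and 31.2 FPKM in sheath (-3.79, SE 0.43, edgeR adjusted p = 0.0007), and the small heat shock gene hsp18f (GRMZM2G083810) averaged 19.5 ± 3.58 FPKM in blade, 28.9 ± 7.47 in ligule and 64.9 ± 4.6 in sheath (SD, n = 3 each; -1.68, SE 0.24, edgeR adjusted p = 0.0034). The list median was 0.01 and its summed level 4630 to 6350 CPM in blade and 3900 to 5420 CPM in sheath, so the list as a whole did not follow these 2 genes. Further called genes, kept in every leave-one-out fit, were aconitase2 (GRMZM5G858454), an enzyme gene of organic acid metabolism, at 2.84 ± 0.422 FPKM in blade and 13.4 ± 4.62 in sheath (-2.16, SE 0.28), the glutathione S-transferase gene GST38 (GRMZM2G066369), at 1.06 ± 0.67 FPKM in blade and 6.16 ± 0.367 in sheath (-2.48, SE 0.42), and HIT2 (GRMZM2G126765), at 3.86 ± 0.207 FPKM in blade and 19.4 ± 1.78 in sheath (-2.28, SE 0.26).

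Fewer genes were higher in blade, and some of the named ones were nearly off in sheath. The gene abph1 (GRMZM2G035688), a cytokinin response regulator whose mutants have altered leaf arrangement on the stem, stood at 7.4, 3.26 and 5.45 FPKM in blade, 2.66, 1.53 and 1.07 FPKM in ligule and 0.0949, 0 and 0 FPKM in sheath. Its 374 counts in blade and 1 in sheath gave a ratio of 172 after scaling by depth, with a 95% interval from 30.7 to 6810 that covers counting error only (edgeR adjusted p = 0.001). The gene incw1 (GRMZM2G139300), for a cell-wall invertase that splits sucrose outside the cell, stood at 4.59, 4.28 and 5.74 FPKM in blade, 0.438, 0.304 and 0.258 FPKM in ligule and 0.0299, 0 and 0.0487 FPKM in sheath. Its 953 counts in blade and 2 in sheath gave a ratio of 219, with a counting interval from 60.4 to 1810 (edgeR adjusted p = 2.6e-05). In both genes blade, ligule and sheath libraries did not overlap, and both calls were kept whichever library was left out.

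In the cytokinin list, 2 of 22 tested genes were called, against 1.58% of all genes, and the median was -0.1. They were abph1 and, in the opposite direction, HK1b2 (GRMZM5G833140), a histidine kinase gene of the cytokinin receptor family. HK1b2 stood at 2.21, 2.64 and 1.83 FPKM in blade, 4.5, 3.6 and 6.16 FPKM in ligule and 5.06, 5.6 and 6.32 FPKM in sheath (-1.28, SE 0.27, edgeR adjusted p = 0.03; call lost without any blade library or sheath replicate 3 or 5, leave-one-out range -1.43 to -1.15). Response regulators of the list that were not called include RR9 and RR6: RR9 averaged 24.6 ± 1.32 FPKM in blade and 22.7 ± 1.45 in sheath, and RR6 averaged 15.5 ± 3.25 FPKM in blade and 17.2 ± 3.54 in sheath (SD, n = 3 each). In the starch and sugar list, the 2 called genes of 22 tested were both higher in blade (0.504% of all genes), and the median was -0.03. Next to incw1 this was wx1 (GRMZM2G024993), for the granule-bound starch synthase, with 63 counts in blade and 0 in sheath, at least 9.65-fold higher in blade against a floor of 3 counts over the sheath libraries. Its level in blade was only 0.302, 0.342 and 0.257 FPKM (edgeR adjusted p = 0.021), and its call was lost without any blade library, ligule replicate 5 or sheath replicate 3 or 5.

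Of 41 genes in the auxin list, 3 were called higher in blade (0.504% of all genes) and 1 lower (1.07%), and the median was -0.1. GH3 (GRMZM2G378106), of the family that conjugates auxin and other hormones to amino acids, stood at 4.27, 3.88 and 4.75 FPKM in blade, 2.16, 0.766 and 1.35 FPKM in ligule and 0.24, 0.456 and 1.13 FPKM in sheath (2.97, SE 0.5, edgeR adjusted p = 0.0091; call lost without blade replicate 5, leave-one-out range 2.6 to 3.63). The gene listed as ARF3 (GRMZM2G078274) entered the list by this symbol alone, so its membership is uncertain. It was abundant, with 1690, 1650 and 2030 FPKM in blade, 1130, 1120 and 1280 FPKM in ligule and 868, 686 and 728 FPKM in sheath. Blade, ligule and sheath formed 3 levels without overlap, and blade was 2.43-fold above sheath (1.28, SE 0.22, edgeR adjusted p = 0.0091; call lost without blade replicate 5 or sheath replicate 5, leave-one-out range 1.19 to 1.44). ARF4 (GRMZM2G034840), also listed by symbol, stood at 13.9, 13.2 and 17.1 FPKM in blade, 11.1, 5.1 and 6.34 FPKM in ligule and 4.03, 6.14 and 4.48 FPKM in sheath (1.65, SE 0.29, edgeR adjusted p = 0.013; call lost without blade replicate 5 or sheath replicate 3 or 5, leave-one-out range 1.54 to 1.87). AUX36 (GRMZM2G359924), named after its value was seen, was the auxin gene called lower, at 2.98 ± 0.917 FPKM in blade and 11.4 ± 4.34 in sheath (SD, n = 3 each; -1.84, edgeR adjusted p = 0.028), a call lost without any blade library, ligule replicate 5 or sheath replicate 4 or 5 (leave-one-out range -2.11 to -1.66). The efflux carrier genes PIN1a (34.3 ± 11.1 FPKM in blade and 28.4 ± 13.3 in sheath) and PIN1d (56.4 ± 5.99 FPKM in blade and 48.9 ± 5.61 in sheath) were not called.

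Other genes higher in blade had calls that rested on fewer libraries. GRF12 (GRMZM2G119359), listed by its symbol among growth-regulating factors, stood at 70.2, 79.2 and 83.8 FPKM in blade, 42.4, 44.5 and 37.8 FPKM in ligule and 35.4, 46.3 and 41.9 FPKM in sheath (0.98, SE 0.2, edgeR adjusted p = 0.029). Ligule and sheath overlapped fully, and the call was lost without any blade library or sheath replicate 3 or 5 (leave-one-out range 0.92 to 1.08). GRF12 was the only called gene of 27 tested in that list (0.504% of all genes), whose median was -0.03. BX5 (GRMZM2G063756), a cytochrome P450 gene of benzoxazinoid defence compounds, averaged 61.9 ± 9.34 FPKM in blade, 58.1 ± 27 in ligule and 16.9 ± 1.35 in sheath (1.93, SE 0.35, edgeR adjusted p = 0.014; call lost without blade replicate 4 or 5 or sheath replicate 5, leave-one-out range 1.8 to 2.05). The SBP-box gene sbp29 (GRMZM2G067624) averaged 26.5 ± 13.1 FPKM in blade, 40.7 ± 7.73 in ligule and 9.09 ± 3.25 in sheath (SD, n = 3 each). Its difference was 1.64 (edgeR adjusted p = 0.049), and its call was lost without any library except blade replicate 3 (leave-one-out range 1.27 to 1.98). It was the only called gene of 21 SBP-box genes tested (0.504% of all genes). Of the 21, 17 had a difference below 0, and the median was -0.26, so the list as a whole did not follow sbp29. The remaining genes that the rule picked as higher in blade were MADS76, DBP2, OFP16, HP3 and mlo5. Their differences ran from 1.14 to 1.67 on the log2 scale, except for MADS76. That gene had 70 counts in blade and 1 in sheath (ratio 32.2, 95% counting interval 5.59 to 1290). Each lost its call in 4 or more of the 9 leave-one-out fits. Named genes higher in blade that the rule did not pick were adf2, ERD3, ole1 and OFP32, named after their values were seen. The calls of adf2 (7.19, edgeR adjusted p = 0.0027) and ERD3 (2.58, edgeR adjusted p = 0.0049) were kept in every leave-one-out fit. Those of ole1 (4.29) and OFP32 (1.66) were not.

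**Figure D2:**
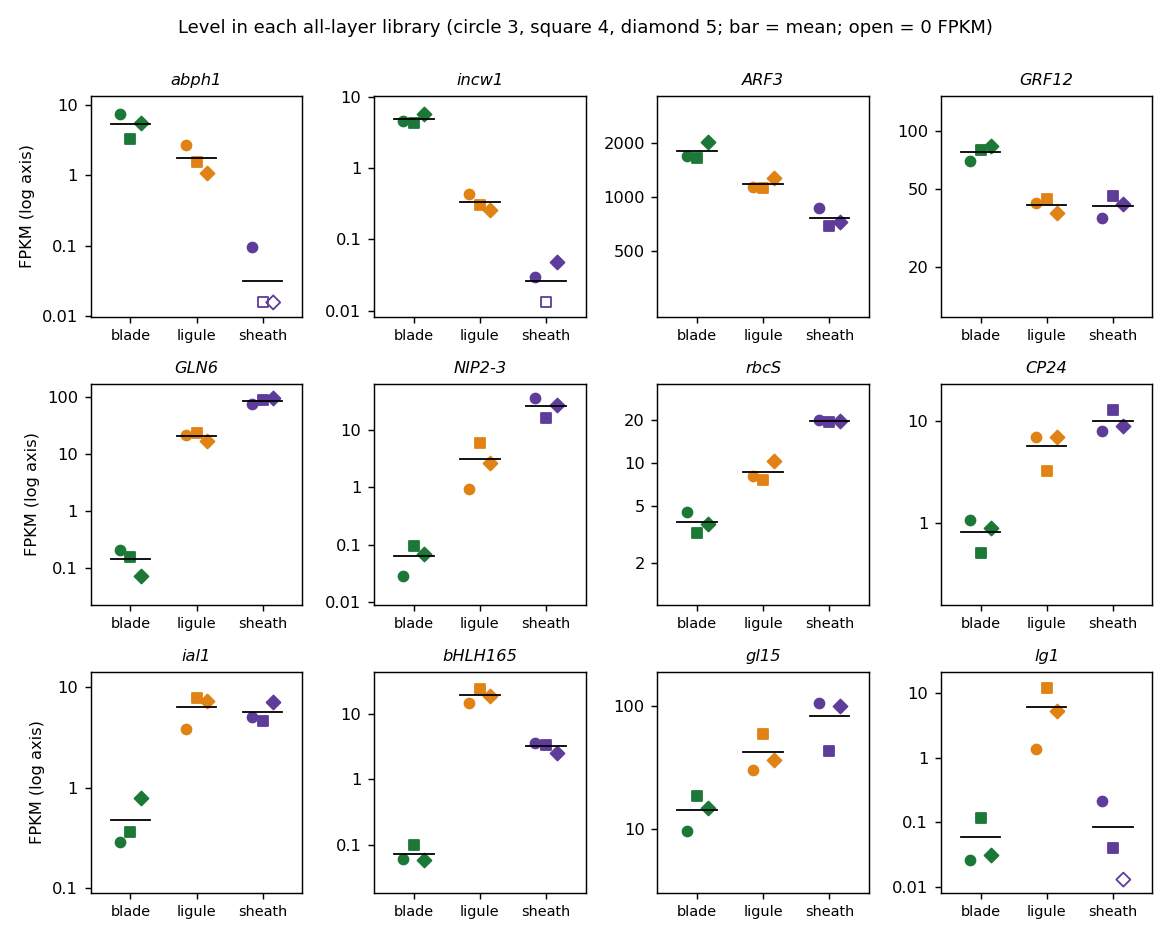
Level (FPKM, log axis, scale set per gene) of 12 genes in each of the 9 all-layer libraries, with blade left, ligule in the middle and sheath right. Circles, squares and diamonds are replicates 3, 4 and 5, bars are group means, and open symbols at the bottom mark 0 FPKM. GLN6, NIP2-3, rbcS, abph1, incw1 and ARF3 show 3 separate levels with the ligule in the middle, whereas bHLH165 and lg1 are highest in the ligule.

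No KNOX, YABBY, KANADI or TCP gene was called, but only 3 of the 10 listed KNOX genes could be tested. The KNOX gene kn1, which maintains meristems, had 32 counts over the blade libraries, 35 over the ligule and 16 over the sheath libraries and was too low to be tested, as was lg4 with 0, 4 and 1 counts. The KNOX gene lg3 had 10 and 21 counts in blade and sheath (edgeR adjusted p = 0.81). The KNOX genes knox6 (12 ± 3.03 FPKM in blade and 11.8 ± 1.62 in sheath) and knox7 (11.9 ± 2.78 FPKM in blade and 10.4 ± 1.11 in sheath) were better expressed and differed by less than their spread. Of 7 tested proximal-distal regulators, ial1 alone was called, against 1.58% of all genes, and the median was -0.07. The bZIP gene lg2 (GRMZM2G060216), a liguleless gene, stood at 9.49, 11.9 and 16.9 FPKM in blade, 16.5, 13.9 and 18.2 FPKM in ligule and 13.5, 11.8 and 9.35 FPKM in sheath (0.2, SE 0.27, edgeR adjusted p = 0.94). The KNOX repressor gene rs2 (GRMZM2G403620) stood at 24.9, 32.7 and 23.9 FPKM in blade, 28.8, 30.8 and 22.9 FPKM in ligule and 31.6, 27.8 and 29.7 FPKM in sheath (-0.07, SE 0.23, edgeR adjusted p = 0.98). In both genes the regions overlapped.

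The lists without a called gene are given by counts and medians only, beside the 50.8% of all tested genes with a difference below 0. YABBY and KANADI genes mark the lower leaf face in Arabidopsis, and whether they do so in maize was not tested here. Of 10 such genes tested, 9 had a difference below 0, and the median was -0.78. The most abundant, yabby15, averaged 467 ± 138 FPKM in blade and 1300 ± 563 in sheath (SD, n = 3 each; -1.44, edgeR adjusted p = 0.1), and was called lower in blade in the adaxial L1 (-3.28, SE 0.3, edgeR adjusted p = 9.1e-05). YAB6 averaged 25.9 ± 1.24 FPKM in blade and 50.9 ± 13.8 in sheath (-0.91, edgeR adjusted p = 0.077). The list summed to 257 to 440 CPM in blade and 490 to 1220 CPM in sheath. Of 12 lignin synthesis genes, 11 had a difference below 0 (median -0.86), with wide spread between libraries: Laccase-17 (GRMZM2G072808) averaged 3.51 ± 5.77 FPKM in blade and 20.9 ± 31.4 in sheath. The lignin median lay between -0.86 and -0.32 over the settings that rescale or refit. Of 7 TCP genes, 6 had a difference below 0 (median -0.75). By contrast, 2 of 32 ribosomal protein genes had a difference below 0, with a list median of 0.19, and 2 of 11 histone genes, with a list median of 0.22. No member was called in either list. With single libraries left out, 2 to 9 ribosomal protein genes and 1 to 4 histone genes lay below 0. The medians then ran from 0.09 to 0.38 and from 0.14 to 0.39. The summed levels of blade and sheath libraries overlapped in both lists. They were 15600 to 19600 CPM in blade and 13200 to 17800 CPM in sheath for ribosomal protein genes.

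**Figure D3:**
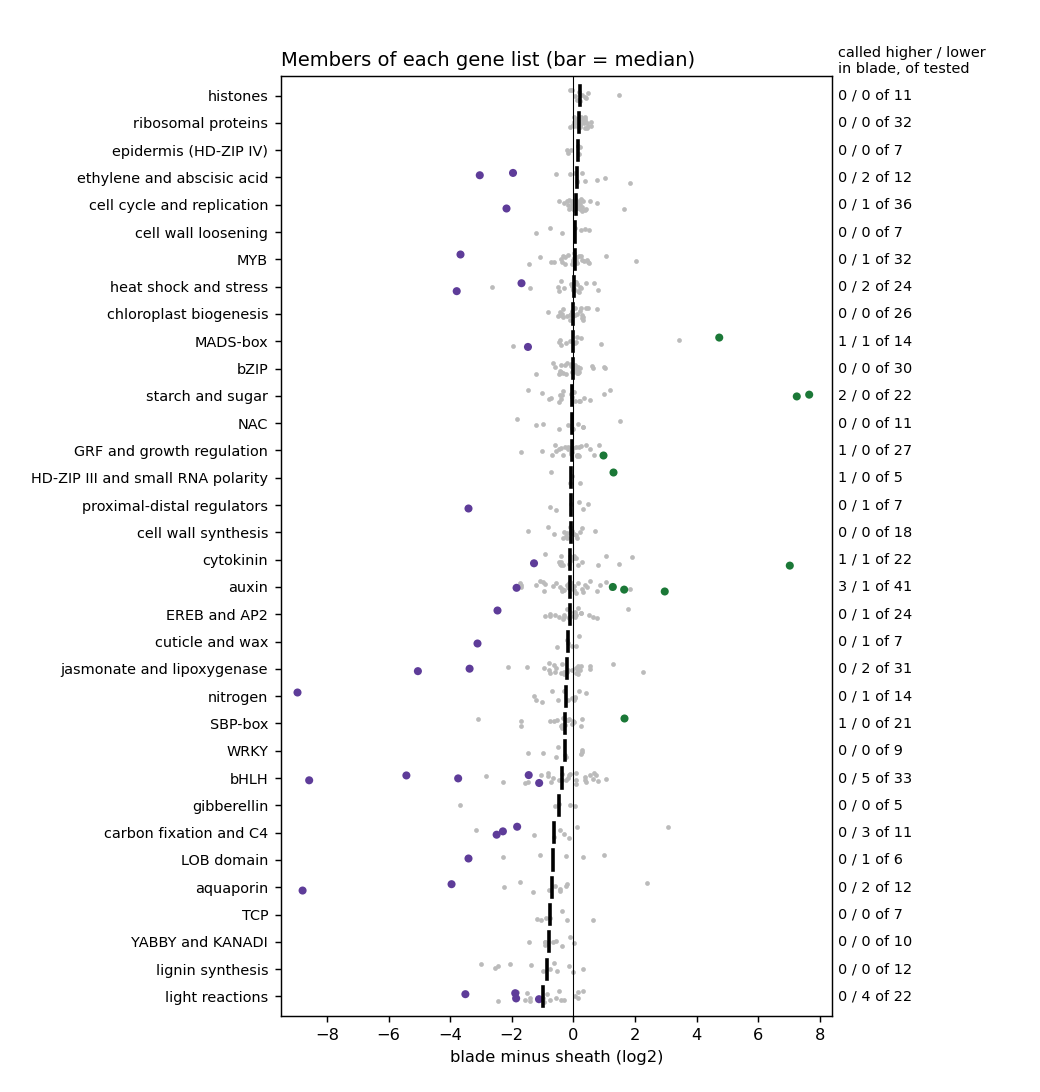
Blade minus sheath difference (log2) of each tested member of the gene lists with at least 5 tested members, ordered by list median (black bar). Grey dots are genes not called, green dots genes called higher and purple dots genes called lower in blade, with their counts at the right. The light reactions list has the lowest median, at -0.97, and the histone list the highest, at 0.22; most medians lie close to 0.

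Across the families, transcription factor lists with no call were WOX, NAC, bZIP and WRKY, with 3, 11, 30 and 9 tested genes. The MADS-box list had 1 called gene in each direction among 14 tested, against 1.58% of all genes called in either direction. MADS34 (GRMZM2G137510) was lower in blade and peaked in the ligule, with 1.01, 0.64 and 1.08 FPKM in blade, 24, 24 and 19.8 FPKM in ligule and 2.71, 2.71 and 2.34 FPKM in sheath. Its difference between blade and sheath (-1.47, SE 0.31, edgeR adjusted p = 0.032) was lost as a call without any library except ligule replicate 3 (leave-one-out range -1.59 to -1.3). The ligule exceeded both, by 4.5 over blade (edgeR adjusted p = 8.1e-06) and 3.03 over sheath (edgeR adjusted p = 0.00016).

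For each of the 350 genes the ligule was then placed by the same edgeR fit. Against blade, 1054 genes were called in the ligule (4.75%), 608 higher (2.74%) and 446 lower (2.01%). Against sheath, 619 were called (2.79%), 315 higher (1.42%) and 304 lower (1.37%). Same-numbered blade and ligule libraries varied together, and with the replicate number as a block in a fit of these 6 libraries, an alternative chosen after seeing the data, 2879 genes were called against blade, 1040 of them among the 1054. These contrasts share libraries with the comparison of blade and sheath, so the placement is a description. A gene was put at the sheath level if the ligule was called against blade only and lay on the sheath side, at the blade level if it was called against sheath only, between if called against both and in between, above or below both if the ligule mean lay outside the range with a call on that side, and unplaced otherwise. These classes record which tests were passed and do not show equal levels. More genes passed against blade (1054) than against sheath (619), and how far this affected the class sizes was not tested. GRMZM2G173742 was put at the sheath level with the ligule 5.04 above sheath (edgeR adjusted p = 0.24). bHLH24 was put at the blade level with the ligule 3.85 above blade (edgeR adjusted p = 0.075). The ligule stood at the sheath level for 145 of the 350 genes (41.4%) and at the blade level for 68 (19.4%). It was between for 15, above both for 16 and below both for 8, and 98 genes (28%) were unplaced. With the blocked test against blade in place of the unblocked one, the sheath level held 183, the blade level 59, between 22, above both 18, below both 8 and unplaced 60, where 25 of the 350 genes had no blocked value. Among the 112 genes higher in blade, 43 were at the sheath level and 26 at the blade level; among the 238 lower in blade, 102 were at the sheath level and 42 at the blade level. With single libraries left out, the sheath level held 58 to 190 genes and the blade level 26 to 58, the lowest in both without blade replicate 5. On the log2 scale the ligule mean lay inside the range of the other regions for 220 genes (62.9%), and nearer to sheath than to blade for 220 (62.9%). With sheath set to 0 and blade to 1, the median position was 0.41 for genes higher in blade and 0.32 for genes lower in blade.

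**Figure D4:**
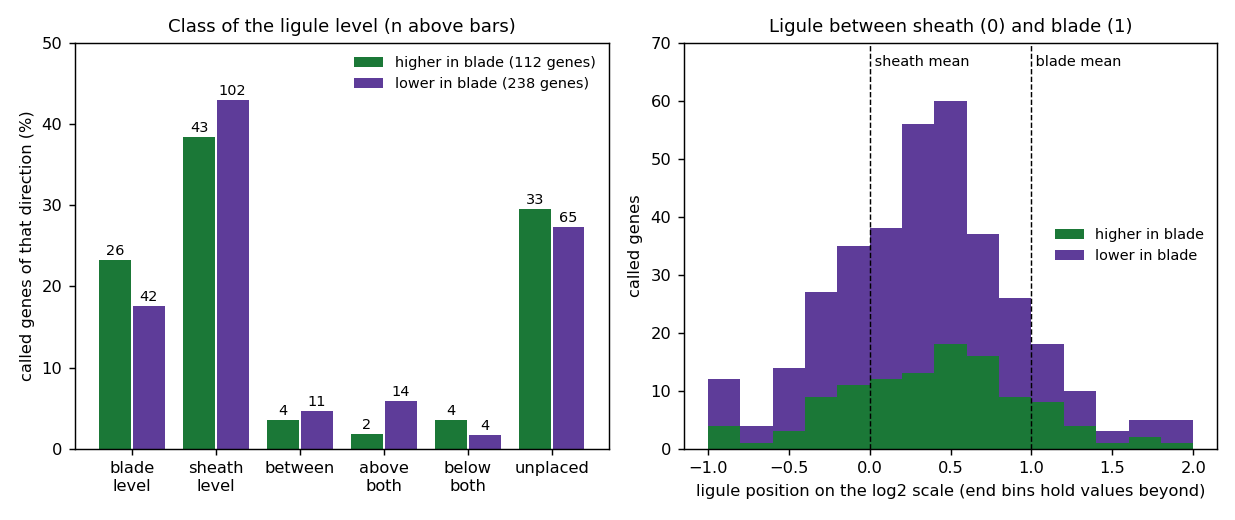
Left, share (%) of the called genes in each class of ligule placement, for the 112 genes higher in blade (green) and the 238 lower in blade (purple), with gene numbers above the bars. Right, number of called genes by position of the ligule mean on the log2 scale, where 0 is the sheath mean and 1 the blade mean. The sheath level is the largest class in both directions, and most positions lie between 0 and 1.

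The named genes kept in every leave-one-out fit fell into several classes, and some whose calls were not kept are given beside them. The 15 genes placed between included GLN6, NIP2-3, bHLH145, gl4a, rbcS, HIT2 and incw1, and all 15 were called between blade and sheath in every leave-one-out fit. For incw1 the ligule was below blade by 4.01 (edgeR adjusted p = 0.00014) and above sheath by 3.65 (edgeR adjusted p = 0.0094), a position of 0.48. For GLN6 the ligule was above blade by 6.81 (edgeR adjusted p = 9.6e-07) and below sheath by 2.15 (a difference of -2.15, edgeR adjusted p = 0.00048), a position of 0.24. At the sheath level were ial1, CP24, psaN, PYL7, SMR4, aconitase2, GST38 and Hsp70, and at the blade level abph1, opr6 and hsp18f. In these the ligule did not pass the test against the nearer region, which does not show equal levels: for abph1 the average was 1.75 ± 0.816 FPKM in ligule and 5.37 ± 2.07 in blade (SD, n = 3 each; edgeR adjusted p = 0.081), and with the replicate block the ligule was called below blade (-1.8, edgeR adjusted p = 0.0076), which puts abph1 between. The blocked test also moved ARF3, cp29, HK1b2, gl15 and aos1, among others, from unplaced to the sheath level. Above both were bHLH165 and MADS34, of which MADS34 did not keep its call between blade and sheath in every leave-one-out fit. Below both was thi1-2 (GRMZM2G074097), a thiamine synthesis gene, with 84.7, 110 and 104 FPKM in blade, 28.2, 32.1 and 27.5 FPKM in ligule and 169, 191 and 224 FPKM in sheath. Its difference between blade and sheath, -0.9 (edgeR adjusted p = 0.049), was lost as a call without any of the 9 libraries (leave-one-out range -1 to -0.79). The remaining genes that the rule picked as lower in blade had differences from -2.08 to -1.41. They were TUB8, see2b and INO1 at the blade level and SnRK2.11 and GR2b at the sheath level. The calls of TUB8, see2b, INO1 and GR2b were lost without any blade library, among others. That of SnRK2.11 was lost without blade replicate 4 or 5 (leave-one-out range over the 5 genes -2.45 to -1.08). TRAF18, OFP25, hm1, COL8, Pti1 and sbip1b were also named and called lower in blade, but were not picked. None of their calls was kept in every leave-one-out fit.

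The adaxial L1 libraries, separate dissections of the same regions, gave values that the all-layer comparison had not used. Of 18761 genes tested there, 367 were called (1.96%), 161 higher in blade (0.858%) and 206 lower in blade (1.1%). Leaving out blade replicate 1 of that layer left 201 calls, sheath replicate 2 left 240 and sheath replicate 3 left 231. Of the 350 all-layer genes, 273 could be tested in the adaxial L1. Of these, 110 were called in the same direction (40.3%), 28 of 86 higher and 82 of 187 lower in blade, and 0 were called in the opposite direction. The other genes tested in both gave 255 calls of 18397 (1.39%). The 110 were 30.1% of the 365 adaxial L1 calls tested in both. The sign was the same for 263 of the 273 genes (96.3%). No such share was computed for the other genes, so how far it is particular to the called genes is not known.

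In the adaxial L1 abph1 was again higher in blade, with 13.0, 23.7 and 13.6 FPKM in blade replicates 1, 2 and 3 and 0 FPKM in each sheath library (edgeR adjusted p = 0.00041). SMR4 (-3.63, SE 0.45, edgeR adjusted p = 0.00081), GST38 (-6.39, SE 0.79, edgeR adjusted p = 0.00077) and Hsp70 (-5.42, SE 0.5, edgeR adjusted p = 0.0001) were lower in blade there too. The allene oxide synthase gene aos1 stood there at 0.0688, 0.097 and 0.0595 FPKM in blade and 6.58, 5.82 and 10.1 FPKM in sheath (-6.52, SE 0.75, edgeR adjusted p = 0.00054), without overlap. The bHLH gene bHLH165 was not off in blade there, with 3.73, 7.7 and 2.46 FPKM in blade and 18.4, 17.9 and 30.2 FPKM in sheath (-2.21, SE 0.42, edgeR adjusted p = 0.016). The invertase gene incw1 stood at 13.5, 9.02 and 10.5 FPKM in blade and 0.467, 1.48 and 6.41 FPKM in sheath and was not called there (2.05, SE 0.7, edgeR adjusted p = 0.21). Of the called genes in the light reactions and carbon fixation lists, rbcS, CP24 and psaN were low in that layer. There rbcS was at 0.433, 0.203 and 1.4 FPKM in blade and 1.72, 0 and 1.0 FPKM in sheath. CP24 was at 0, 0 and 0.0769 FPKM in blade and 0 in each sheath library. The level of psaN was 0.132, 0 and 0.283 FPKM in blade and 0, 2.34 and 0.127 FPKM in sheath. PPDK2, in contrast, stood at 13.1, 20.2 and 25.1 FPKM in blade and 96, 144 and 132 FPKM in sheath and was called (-2.58, SE 0.35, edgeR adjusted p = 0.0017), and cp29 stood at 12.2, 5.19 and 5.22 FPKM in blade and 14.7, 3.37 and 2.91 FPKM in sheath without a call (0.24, SE 0.95, edgeR adjusted p = 0.97). In the adaxial L1, 0 of 9 light reaction genes tested and 1 of 6 carbon fixation genes were called by edgeR, against 1.96% of all genes tested there. The median difference of the tested genes was 0.16 for light reactions and -0.45 for carbon fixation in that layer. Whether the effect of a region differs between layers was not tested.

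**Figure D5:**
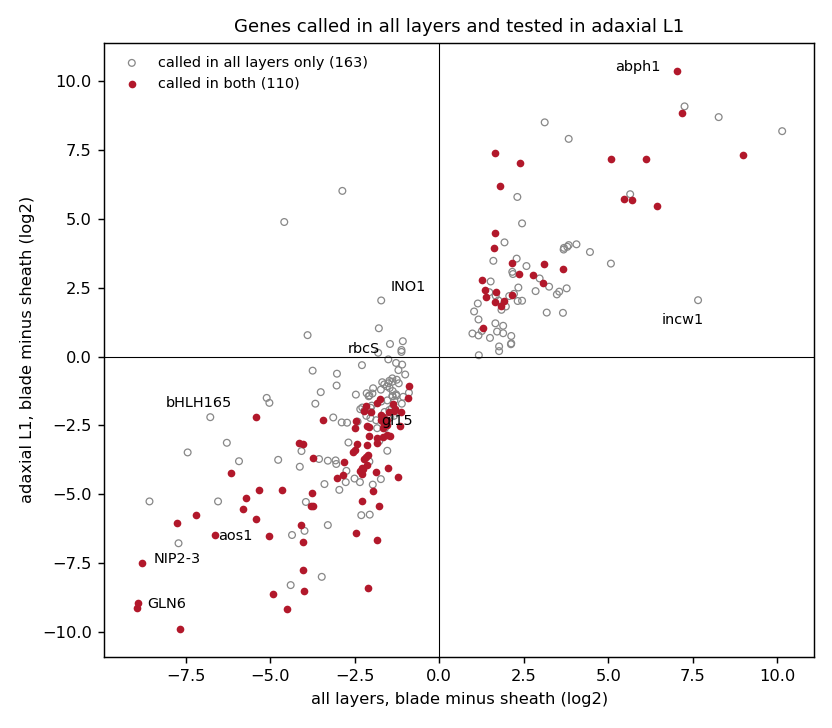
Blade minus sheath difference (log2) in the adaxial L1 against that in all layers, for the 273 genes called in all layers and tested in both. Red dots are the 110 genes called in both, open circles the 163 called in all layers only. The red dots lie at lower left and upper right, where the sign is the same, and INO1 is among the 10 genes with opposite signs.

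Most called genes have no name in the table used. GRMZM2G146809 stood at 2.08, 0.977 and 0.218 FPKM in blade, 6.95, 6.62 and 11.9 FPKM in ligule and 275, 249 and 281 FPKM in sheath (-7.75, SE 0.54, edgeR adjusted p = 2.2e-05). It was thus high in sheath alone, and in the sheath libraries of the adaxial L1 it was at 0, 0 and 0.142 FPKM. GRMZM2G062718 was nearly off in blade, at 0.0821, 0.0266 and 0.113 FPKM, and alike in ligule (15.9, 18.8 and 10.3 FPKM) and sheath (13.3, 10.4 and 12.2 FPKM; blade minus sheath -7.21, SE 0.45, edgeR adjusted p = 6.3e-06). On the blade side, GRMZM2G173315 stood at 17.5, 13.9 and 12.9 FPKM in blade, 5.06, 2.08 and 1.39 FPKM in ligule and 0.433, 0.349 and 0.217 FPKM in sheath (5.47, SE 0.53, edgeR adjusted p = 2e-04). GRMZM2G098474 was uneven in blade, at 5.25, 21.8 and 2.2 FPKM, where it overlapped with ligule, at 14.7, 38.8 and 37.0 FPKM, and it was low in sheath, at 0.0498, 0.0953 and 0.242 FPKM (6.44, SE 1.1, edgeR adjusted p = 0.019). Leaving out any of the 3 sheath libraries ended its call.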

How the data were processed

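RNA of laser-cut P7 leaf tissue was sequenced; 9 all-layer and 9 adaxial L1 libraries, 3 in each group, entered the tests. The authors deposited 2 tables of 109715 identifiers, 1 with estimated counts and 1 with FPKM. Tools listed in the submitters' processing notes are Cuffdiff 2.1.1 and TopHat2 2.0.10, with no role given. Genome build, annotation and strandedness: not given in the sources used here. Near-identical paralogs and overlapping genes may thus share or split reads. Counts, of which 0.473% to 0.601% per all-layer library were not whole, were rounded.

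Counts were tested with edgeR 4.0.16 in R 4.3.3 (robust quasi-likelihood test, TMM factors, Benjamini-Hochberg adjustment, threshold 0.05). The filterByExpr minimum was 10 counts and 15 in total. There was 1 fit for the 9 all-layer libraries and 1 for the 9 adaxial L1 libraries, and the code was tested on simulated data. The SE is the absolute log2 difference divided by the square root of F. Intervals and floors cover counting error only. Replicates are pools of plants, so p-values measure the spread between these libraries, part of which may be technical. The chi-square per degree of freedom between replicates was 21 to 142, so no pair agreed within counting error.

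Replicate numbers were taken to pair blade with ligule libraries, from the data alone: deviations from the group means of same-numbered libraries correlated over genes at 0.48, 0.43 and 0.21. The pairing was thus chosen from the same values that were then tested with the block. Between blade and sheath the replicate numbers did not pair. Names were looked up in RefSeq's Zm-B73-REFERENCE-NAM-5.0 gene list, where 18259 identifiers had 1 locus, 519 had several and 2541 had a name. Named genes are the called ones with the 15 largest differences per direction at an average log2 CPM of 3 or more, up to 2 called members per list (those with the lowest p) for 40 lists made from gene names, lg1, lg2, lg3, lg4, kn1 and rs2, every called gene of the axis, polarity, SBP-box and GRF lists, and up to 5 per placement class. The regions and lists were chosen with earlier results of these data known. Alternatives tried were DESeq2 1.42.0, RLE factors, no filter, limma 3.58.1 with pseudocounts of 1 and 0.1 on the log2(FPKM) scale, a replicate block, other library sets, each library left out and thinning. Promoter motifs were not searched. Plots used matplotlib 3.10.9 under Python 3.11.15.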

Additional observations from a re-analysis of the deposited data

Results flagged for a closer look

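INO1 (GRMZM2G155242), an inositol phosphate synthase gene, was singled out because all its libraries moved one way in all layers and the opposite way in the adaxial L1. In all layers it stood at 39.3, 55.1 and 57.5 FPKM in blade replicates 3, 4 and 5, against 193, 161 and 179 FPKM in sheath (-1.72, SE 0.35, edgeR adjusted p = 0.029). In the adaxial L1 it stood at 28.7, 25.9 and 14.5 FPKM in blade replicates 1, 2 and 3, against 10.4, 2.93 and 5.89 FPKM in sheath (2.04, SE 0.51, edgeR adjusted p = 0.062). The difference between the layers was not tested. The all-layer call was lost without any blade library, ligule replicate 5 or sheath replicate 3 or 5.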

How the results depend on the processing

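The 46 named called genes kept their direction under every alternative that tested them, limma with its filter testing 42 and thinning 43. Of the 46, 43 stayed called with RLE factors, 37 with blade and sheath libraries alone, and 26 with all 24 libraries in the fit. For the counts below, the cause of each change was not tested.

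DESeq2 called 677 genes, 206 higher and 471 lower in blade. Without a filter edgeR called 827 (275 and 552), with all 24 libraries 166 (51 and 115), and limma on log2(FPKM + 1) without a filter 181 (67 and 114). In the adaxial L1, DESeq2 called 879 (417 higher and 462 lower in blade) and edgeR without a filter 906 (480 and 426).

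Placement counts follow in the order sheath level, blade level, between, above both, below both and unplaced. They were 295, 129, 29, 39, 24 and 161 with DESeq2, 342, 150, 39, 58, 23 and 215 without a filter, 84, 25, 5, 5, 1 and 46 with all 24 libraries, and 82, 37, 5, 8, 3 and 46 with limma without a filter. After thinning, chosen after seeing the data, 63 were unplaced.

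With each library left out, the called genes numbered 113 to 355, 35 to 119 higher and 78 to 259 lower in blade, and in the adaxial L1 201 to 397, 77 to 173 higher and 124 to 224 lower. The placement counts were then 58 to 190, 26 to 58, 7 to 14, 6 to 20, 1 to 8 and 12 to 127.

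Same-numbered blade and sheath libraries did not pair: their deviations from the group means correlated over genes at -0.45, -0.3 and 0.28 for replicates 3, 4 and 5. Sheath replicate 4 went best with blade replicate 3 (0.49) and sheath replicate 3 with blade replicate 4 (0.41). Against ligule the same cross matches stood at 0.53 (ligule replicate 3, sheath replicate 4) and 0.57 (ligule replicate 4, sheath replicate 3). Same-numbered ligule and sheath libraries stood at -0.53, -0.43 and 0.23. A block by number over all 9 libraries thus joined sheath replicates 3 and 4 to libraries with which they did not vary together. With a replicate block in the fit of 9 libraries 185 genes were called, 59 higher and 126 lower in blade, with 84, 40, 13, 8, 4 and 36 in the placement classes. Of the 46, 28 stayed called with that block. In the adaxial L1 the block gave 300. Between ligule and blade the block gave 769 calls in the fit of 9 libraries and 2879 in that of 6, where 1340 were called without it; with the block in the fit of 6 60 genes were unplaced.

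Sheath libraries were the shallowest, so genes low in sheath are the least precise. The motif search planned for promoters was not run.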
